A study of Caenorhabditis elegans with 4 samples.

Results

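The PAR polarity genes of the nematode Caenorhabditis elegans were followed by name: par-1, par-2, par-3, par-4, par-5 and par-6, the atypical protein kinase C gene pkc-3, the small GTPase gene cdc-42 and the kinase gene mbk-2. They were taken from the platform's probe annotation and averaged per gene where values stood on at least 3 arrays. Of the 9 genes, 8 were measured, all on 4 arrays, among 15059 named genes and 19214 features in all. No probe was matched to par-4, which is not analysed here.

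PAR proteins set up the front and the back of the C. elegans zygote and of many later cells. PAR-3, PAR-6 and PKC-3 with CDC-42 occupy the anterior cortex, while PAR-2 and the kinase PAR-1 occupy the posterior cortex, and each side keeps the other out. PAR-4, a kinase related to LKB1, and PAR-5, of the 14-3-3 family, are found around the whole cortex and in the cytoplasm. The polarised cortex sorts RNA-binding proteins such as MEX-5 and PIE-1 to opposite ends, and MBK-2, a DYRK-family kinase, marks several oocyte proteins for destruction after fertilisation. The transcripts are loaded into the egg by the mother, and several members also act in epithelia and other somatic cells.

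The tested RNA came from adult males of a him-5 mutant strain, which throws many males because the X chromosome often fails to segregate, in 4 preparations. Each was hybridised on its own array of 2 colours beside RNA of wild-type worms of mixed stages. The allele, the males' age, their purity and the number of worms per preparation are not given in the sources used here, and the labels call the material mRNA in the sample sources and total RNA in another field. The wording of the reference differs between preparation 1 and the others, and whether it was 1 pool is not stated. Sex, stage and the him-5 mutation differ together between the 2 sides and cannot be told apart, and in whole worms fewer cells of a type cannot be told apart from less RNA per cell. Nothing says that the preparations came from separate cultures, so a p-value here speaks only of how much these preparations vary, which could be technical variation.

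Values are log2 ratios of males over reference: 0 is equal signal and -1 is 2-fold lower in males. That direction is likely from the labels and not settled, since no dye is named. Of the marker lists used to check it, 20 of 22 sperm markers and 29 of 30 genes of the major sperm protein were higher in males, with list medians of 1.53 to 2.67 and 4.01 to 5.08 on single arrays. Of 16 oocyte markers, 14 were lower and 1 was higher, with list medians between -1.96 and -1.25. Of 13 markers of male neurons and tail, 9 were higher and 1 was lower. The 3 measured yolk genes, 1 of them higher and 1 lower, had medians of 0.08 to 0.98 and so did not follow the oocyte markers. The log2 ratio of him-5 was -3.11 to -1.61 on single arrays, which does not check the strain, since the probe's place relative to the mutation is not known here. The array medians over all features lay between -0.01 and 0.07.

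The comparison asked how abundant each polarity transcript was in adult males relative to a mixed wild-type population. Transcripts of par-3, mbk-2 and cdc-42 fell in males, 2.62-fold, 2.28-fold and 2.13-fold, while no member was called higher. Thus 3 of 8 members were called lower at an adjusted p under 0.05 (limma, Benjamini-Hochberg over all features), against 23.6% of all features called lower, 22.1% called higher and 45.7% called in either direction. The counts are small, and the members' share of lower calls (37.5%) is not tested against that background. The median over the members' mean log2 ratios was -0.61, against 0.05 over all features. Without preparation 2 the members' median was -0.35, and with arrays centred on chemoreceptor or ribosomal protein genes it was -0.95 or -1.01, where all features had -0.29 or -0.35; the 3 calls remained under each.

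**Figure D1:**
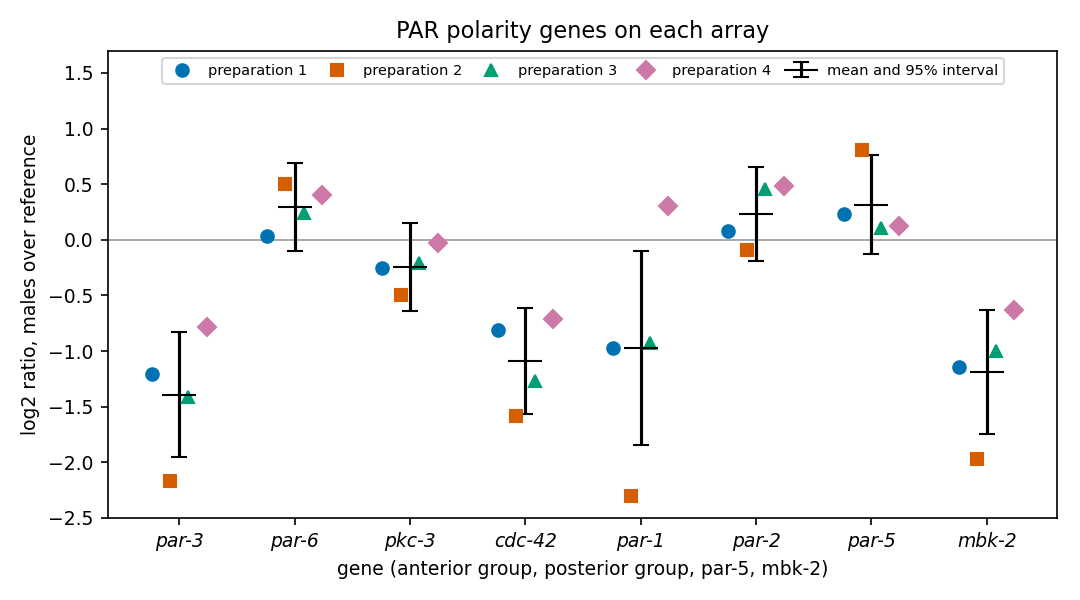
Log2 ratio of males over reference (vertical axis) for the 8 measured PAR polarity genes (horizontal axis). Coloured symbols are the 4 preparations, and the black bar and whiskers are the mean and its 95% interval from limma (n = 4). The symbols of par-3, cdc-42 and mbk-2 all lie below 0, from -2.16 to -0.63, whereas those of par-1 run from -2.30 to 0.30.

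Among the anterior genes, par-3 encodes the PDZ-domain scaffold that assembles the anterior complex at the cortex. Its log2 ratio was -1.20, -2.16, -1.42 and -0.78 on preparations 1 to 4. Every array was below 0, with preparation 2 lowest and preparation 4 highest. The mean was -1.39 ± 0.58 (SD, n = 4; adjusted p = 0.00335 by limma), the lowest among the members and at the 5.31 percentile of all feature means. Within single arrays par-3 stood between the 2.41 and the 18.6 percentile.

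The GTPase gene cdc-42, whose product binds PAR-6 and holds the active complex at the anterior cortex, had log2 ratios of -0.81, -1.58, -1.27 and -0.71. All 4 arrays were again below 0, and the order of the arrays was the same as for par-3. The mean was -1.09 ± 0.41 (SD, n = 4; adjusted p = 0.0045 by limma), at the 10.1 percentile of all features.

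The other components of the same complex did not pass the test. The adaptor gene par-6, whose product links CDC-42 to PKC-3, had log2 ratios of 0.04, 0.50, 0.24 and 0.40 as the mean of 2 probes. All were above 0, but the mean of 0.29 ± 0.20 (SD, n = 4) was not called (adjusted p = 0.187 by limma, 95% interval -0.10 to 0.69). The probes disagreed. Probe 1 had 0.23, 1.11, 0.59 and 0.59 and was called higher when every probe was tested on its own (mean 0.63, adjusted p = 0.0329 by limma). Probe 2 had -0.16, -0.11, -0.11 and 0.21 with a mean of -0.04 (adjusted p = 0.843 by limma). The average for par-6 therefore stands between a probe that was called and one that was not.

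For pkc-3, the kinase gene of the anterior complex, the log2 ratios were -0.25, -0.49, -0.21 and -0.03. All 4 arrays were below 0 by little, and the mean of -0.25 ± 0.19 (SD, n = 4) was not called (adjusted p = 0.258 by limma, 95% interval -0.64 to 0.15). With the values as deposited, the interval leaves room for a fall as large as -0.64 but not for one the size of the mean of par-3. Centring on chemoreceptor or ribosomal protein genes put the mean of pkc-3 at -0.59 or -0.65, also not called (adjusted p = 0.0813 or 0.153 by limma).

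Neither gene of the posterior pair was called with the values as deposited. The kinase gene par-1, which acts at the posterior cortex and on MEX-5 in the cytoplasm, had log2 ratios of -0.97, -2.30, -0.93 and 0.30. It had the widest spread of the members, with preparation 2 the lowest member value on any array and preparation 4 above 0. The mean of -0.97 ± 1.06 (SD, n = 4) was not called (adjusted p = 0.067 by limma, unadjusted p = 0.0331, 95% interval -1.85 to -0.10). It was -1.40 and called without preparation 4 (adjusted p = 0.0108) and -0.53 without preparation 2 (adjusted p = 0.19), both by limma. It also passed with array weights (adjusted p = 0.00517), with quantile normalization (0.0453) and with the period of the sample titles as a covariate (0.0279) or as a random block (0.044), so its call depends on the processing.

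The RING-finger gene par-2, whose product protects the posterior cortex from the anterior kinase, had log2 ratios of 0.08, -0.09, 0.45 and 0.48. The values lay on both sides of 0, and the mean of 0.23 ± 0.28 (SD, n = 4) was not called (adjusted p = 0.319 by limma, 95% interval -0.19 to 0.65). With array weights it was called higher at 0.37 (adjusted p = 0.0284 by limma), whereas centring on chemoreceptor or ribosomal protein genes put it at -0.11 or -0.17. Array weights also raised the share of all features called higher, from 22.1% to 31.6%. par-2 stood above par-1 on all 4 arrays, by 0.18 to 2.21 on the log2 scale.

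The gene par-5, whose 14-3-3 product binds phosphorylated proteins and helps PAR-1 keep PAR-3 off the posterior cortex, had log2 ratios of 0.23, 0.81, 0.10 and 0.13. Preparation 2 was highest here, the reverse of its place for par-3, cdc-42, mbk-2 and par-1. The mean of 0.32 ± 0.33 (SD, n = 4) was not called (adjusted p = 0.2 by limma, 95% interval -0.12 to 0.76), and without preparation 2 it was 0.15.

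The kinase gene mbk-2, which acts after the oocyte is activated, had log2 ratios of -1.15, -1.97, -1.0 and -0.63. Every array was below 0, with preparation 2 lowest and preparation 4 highest, as for par-3 and cdc-42. The mean was -1.19 ± 0.57 (SD, n = 4; adjusted p = 0.00631 by limma), at the 8.29 percentile of all features.

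Differences between members are unaffected by how an array is centred, because centring subtracts the same number from every gene of that array. With 4 arrays an exact sign-flip test cannot go below 0.125, so these differences are described and not tested. Of 28 pairs of members, 19 kept the same order on all 4 arrays. The genes par-3, cdc-42 and mbk-2 each lay below par-2, par-5, par-6 and pkc-3 on every array, and the smallest of these gaps on a single array was 0.56, between pkc-3 and cdc-42 on preparation 1. Within the anterior complex par-3 was lower than par-6 by a mean log2 difference of -1.69 ± 0.69 and lower than pkc-3 by -1.15 ± 0.40 (SD, n = 4 each). Neighbours in the order did not differ beyond their spread in 2 places. The first is at the top, where par-2 minus par-5 was -0.09 ± 0.59, par-2 minus par-6 was -0.06 ± 0.36 and par-5 minus par-6 was 0.02 ± 0.27 (SD, n = 4 each). The second is lower down, where cdc-42 minus mbk-2 was 0.09 ± 0.32 par-1 minus cdc-42 was 0.12 ± 0.74 and par-1 minus pkc-3 was -0.73 ± 0.87 (SD, n = 4 each). Between par-3 and mbk-2 the difference was small, -0.21 ± 0.15 (SD, n = 4), with par-3 the lower on every array.

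The arrays differed in how far the members spread. From the lowest to the highest member the range was 1.43, 3.11, 1.87 and 1.27 on preparations 1 to 4, and the SD over all features was 1.13, 1.20, 1.18 and 1.28. The members' median was -0.53, -1.04, -0.57 and 0.05, so that preparation 2 was lowest and preparation 4 highest. The oocyte marker median ran in another order, at -1.96, -1.27, -1.25 and -1.81, and the sperm marker median was 2.67, 1.53, 2.29 and 2.09. The members' median was lowest on preparation 2, where the sperm marker median was also lowest. It was highest on preparation 4, whereas the sperm marker median was highest and the oocyte marker median lowest on preparation 1. Preparation 2 also stood apart in how far centring shifted it. Centring on ribosomal protein genes shifted it by -1.10, against -0.335 to -0.041 for the other preparations. Centring on chemoreceptor genes shifted it by -0.76, against -0.274 to -0.136. The part of these markers and shifts in the members' values was not tested.

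**Figure D2:**
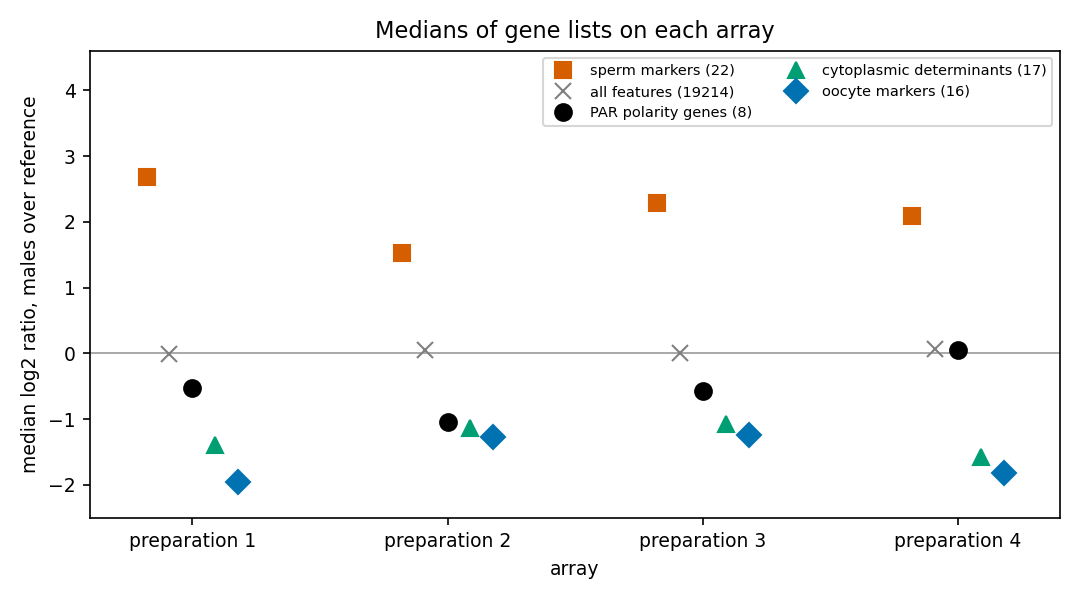
Median log2 ratio of males over reference (vertical axis) on each of the 4 arrays (horizontal axis) for sperm markers, all features, PAR polarity genes, cytoplasmic determinants and oocyte markers, with the number of measured genes in the legend. The PAR polarity median moves between -1.04 and 0.05 and lies above the oocyte marker median on all 4 arrays.

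The dates in the sample titles put preparations 1 and 2 in an earlier period than preparations 3 and 4. What these dates mark is not stated. The mean log2 ratios of the earlier and the later pair were -1.68 and -1.10 for par-3, -1.20 and -0.99 for cdc-42, and -1.56 and -0.81 for mbk-2. Each of these genes was below 0 in both pairs, whereas par-1 had -1.63 in the earlier and -0.31 in the later pair. Fitted with the period as a covariate, par-3, cdc-42 and mbk-2 stayed called (adjusted p from 0.00234 to 0.00534 by limma).

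The list of cytoplasmic determinants holds RNA-binding proteins that PAR proteins sort along the zygote, and other factors of the oocyte and early embryo. All 17 measured cytoplasmic determinants were called lower in males (100%, against 23.6% of all features), with a median of -1.27 and means between -2.29 and -0.74. Examples are oma-2, an oocyte zinc-finger gene, at -2.29 ± 0.67, pos-1 at -1.96 ± 0.69 and spn-4 at -1.94 ± 0.43 (SD, n = 4 each). Chosen after their values were seen, mex-5 and mex-6, whose products carry the polarity signal into the cytoplasm, stood at -1.27 ± 0.33 and -1.77 ± 0.31, and pie-1, which guards germline fate, at -0.74 ± 0.39 (SD, n = 4 each). On every array par-2, par-5, par-6 and pkc-3 lay above the median of this list, which was -1.40, -1.13, -1.07 and -1.57. The determinant list shares 2 genes with the oocyte markers, which were also mostly lower (median -1.44), and their part in it was not tested.

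Genes around MBK-2 were mostly lower. Of 15 measured regulators and targets, 12 (80%) were lower and none higher, against 23.6% of all features called lower, with a median of -1.19. Those with the largest falls were oma-2, mel-26, which targets the katanin subunit MEI-1 for destruction, at -2.0 ± 0.60, and chs-1, the eggshell chitin synthase gene, at -1.88 ± 0.38 (SD, n = 4 each). The members egg-3 and egg-4, which hold MBK-2 at the oocyte cortex and were picked after their values were seen, stood at -1.36 ± 0.37 and -0.84 ± 0.27 (SD, n = 4 each), both called lower. The phosphatase subunit genes pptr-1 and pptr-2 were not called, at 0.12 and -0.53. Of this list, 4 genes are also among the oocyte markers, and oma-1 and oma-2 are also on the determinant list.

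**Figure D3:**
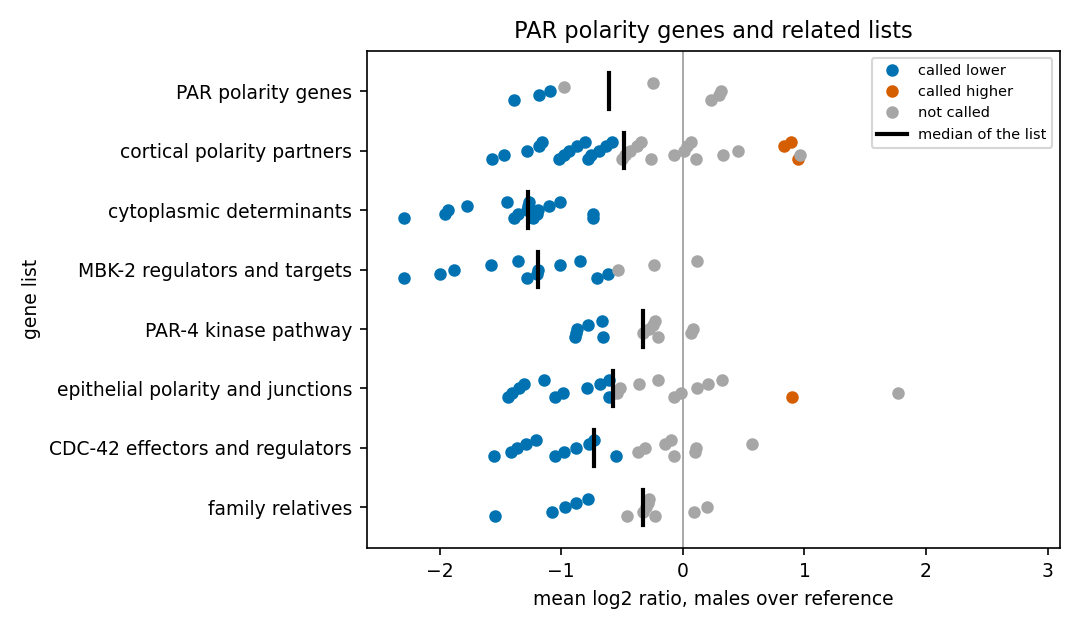
Mean log2 ratio of males over reference (horizontal axis) for each measured gene of the PAR polarity genes and 7 related lists (rows). Blue points were called lower, orange points higher and grey points not called, and black bars are list medians. All 17 cytoplasmic determinants lie below -0.7, while the PAR polarity genes extend on both sides of 0.

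The partners of PAR proteins at the cortex went both ways. Of 32 measured, 15 (46.9%) were lower and 3 (9.4%) higher, against 23.6% and 22.1% of all features, with a median of -0.49. Lower were gsp-2, a catalytic subunit of protein phosphatase 1, at -1.57 ± 0.45, zyg-11, a ubiquitin ligase subunit gene, at -1.47 ± 0.40, and nmy-2, the non-muscle myosin heavy chain gene that drives cortical flow, at -1.28 ± 0.80 (SD, n = 4 each). The higher genes included the myosin light chain gene mlc-4 at 0.95 ± 0.46 and the cullin gene cul-2 at 0.89 ± 0.34 (SD, n = 4 each). The list counts were 9 lower and 0 higher without preparation 3, 6 higher without preparation 2, and 15 lower and 0 higher with arrays centred on ribosomal protein or chemoreceptor genes. Without preparation 3, 16.1% of all features were called lower and 14.8% higher. Without preparation 2, 19.97% of all features were called higher. Centring on ribosomal protein or chemoreceptor genes left 8.5% or 10.5% of all features called higher, with 23.6% or 29.7% called lower. Chosen after its value was seen, lgl-1, which can act in place of PAR-2 at the posterior cortex, was lower at -0.87 ± 0.22 (SD, n = 4; adjusted p = 0.00573 by limma), whereas par-2 was not called; the difference between them was not tested.

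Regulators and effectors of CDC-42 were more often lower than not. Of 19 measured, 11 (57.9%) were lower and none higher, against 23.6% of all features called lower, with a median of -0.73. The kinase gene pak-2 stood at -1.56 ± 0.14, the GTPase-activating protein gene srgp-1 at -1.42 ± 0.58 and the exchange factor gene uig-1 at -1.36 ± 0.57 (SD, n = 4 each). The CDC-42 exchange factor gene cgef-1 and the GTPase-activating protein gene pac-1, both named after their values were seen, were lower at -0.98 ± 0.46 and -1.05 ± 0.63 (SD, n = 4 each). Of these, cgef-1 is also counted among the cortical partners and pac-1 among the epithelial genes described below.

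The pathway of PAR-4, which itself was not measured, was represented by 13 genes, with a median of -0.33. Of these, 6 (46.2%) were lower, against 23.6% of all features, and none was higher. The pseudokinase gene strd-1, whose product is the partner of PAR-4 and which was picked after its value was seen, was not called at -0.21 ± 0.30 (SD, n = 4). The AMP-activated kinase subunit genes aakg-5 and aakg-4 stood at -0.89 ± 0.20 and -0.87 ± 0.23, and the kinase gene kin-29 at -0.88 ± 0.41 (SD, n = 4 each). The genes sad-1, kin-29, aak-1 and aak-2 of this list are also among the relatives described below, and sad-1 has the median value of both lists. Also counted among the cortical partners is ani-2, named after its value was seen, which was not called. Without preparation 3 the count fell to 3, while 16.1% of all features were called lower.

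In the list of epithelial polarity and junctions, where par-3, par-6, pkc-3 and cdc-42 also act, 11 of 22 genes (50%) were lower and 1 was higher, with a median of -0.57. Over all features 23.6% were called lower and 22.1% higher. The alpha-catenin gene hmp-1 stood at -1.44 ± 0.48, picc-1 at -1.41 ± 0.44 and the spectrin gene sma-1 at -1.35 ± 0.87 (SD, n = 4 each). The higher gene was vab-10, a spectraplakin gene, at 0.90 ± 0.83 (SD, n = 4), which lost its call without preparation 1, 3 or 4 (adjusted p = 0.0605, 0.117 and 0.118 by limma). Of its 3 probes tested singly, only the second was called (1.35, adjusted p = 0.0021), while the others were not at 0.64 and 0.72 (adjusted p = 0.329 and 0.115), all by limma. Without preparation 3 the list had 6 lower and 0 higher, while 16.1% of all features were called lower and 14.8% higher.

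Of 13 measured relatives of the members, 5 (38.5%) were lower and none higher, against 23.6% of all features called lower, with a median of -0.33. Without preparation 1 or without preparation 2 the count was 3, and with array weights it was 9. The share of all features called lower was 19.9% or 22.8% without these preparations, and 31.99% with array weights. In the 14-3-3 family, ftt-2 had a mean log2 ratio of 0.20 ± 0.25 and par-5 minus ftt-2 was 0.12 ± 0.48 (SD, n = 4 each), with both signs among the arrays. Neither was called. Among DYRK-type kinases, mbk-1 was lower at -1.08 ± 0.57 (adjusted p = 0.0096 by limma), close to mbk-2 with a difference of -0.11 ± 0.36, and hpk-1 was not called at -0.31 ± 0.80 (SD, n = 4 each).

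Of the protein kinase C genes, pkc-1 was lower at -1.55 ± 0.58 (adjusted p = 0.00208 by limma), and pkc-2 was not called at -0.29 ± 0.41 (SD, n = 4 each). The gene pkc-3 stood above pkc-1 on all 4 arrays, by 1.30 ± 0.39 (SD, n = 4), and within the spread of pkc-2, by 0.04 ± 0.27 (SD, n = 4). Among kinases related to PAR-1, kin-29 and aak-2 were lower at -0.88 ± 0.41 and -0.78 ± 0.45, while sad-1 and aak-1 were not called at -0.33 ± 0.33 and -0.23 ± 0.37 (SD, n = 4 each). With array weights sad-1 was called lower at -0.54 (adjusted p = 0.00631) and pkc-2 at -0.40 (adjusted p = 0.0309), and sad-1 was called at -0.67 with arrays centred on chemoreceptor genes (adjusted p = 0.0268), all by limma. The call of aak-2 was lost without preparation 1, 2 or 3 (adjusted p = 0.067, 0.0538 and 0.0797 by limma). Whether probes of such relatives read more than 1 gene was not tested.

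Patterns over the 4 arrays were also compared with 14650 other named genes by the root mean square difference of the log2 ratios. The genes nearest to the members' per-array median were M04B2.4 (0.036), sdpn-1, a syndapin gene (0.056), and rpn-11, a proteasome subunit gene (0.068). Nearest to par-3, the member with the largest absolute mean, were alh-3 (0.106), pals-23 (0.118) and yap-1 (0.131). Of the other members, mbk-2 was at 0.244 and cdc-42 at 0.361 from par-3, and the rest at 0.609 to 1.87.

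**Figure D4:**
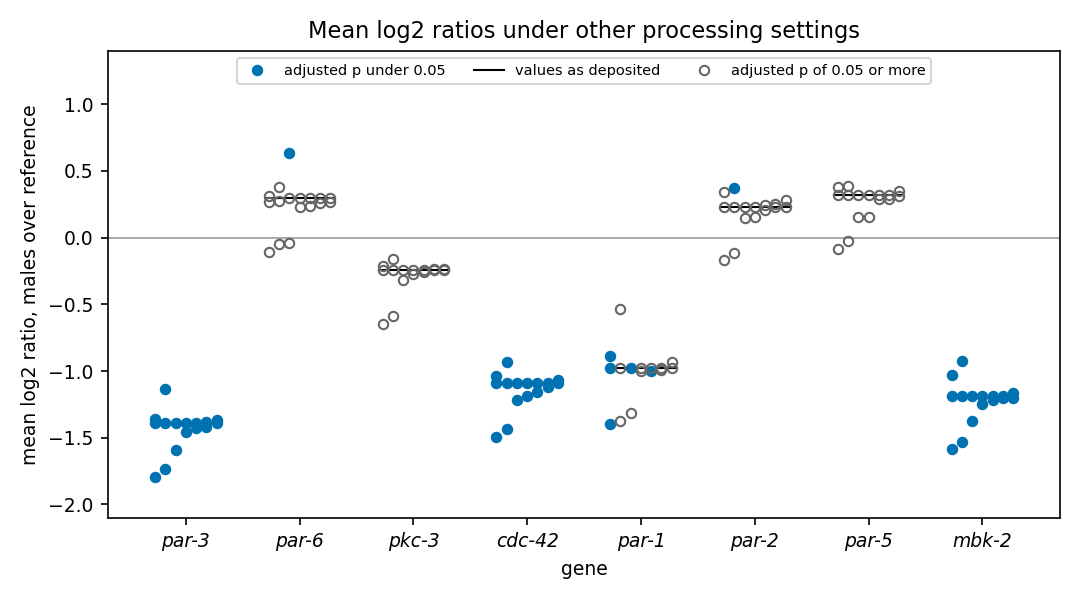
Mean log2 ratio of males over reference (vertical axis) for each measured PAR polarity gene (horizontal axis) with the values as deposited (black line) and under each other processing setting (points, filled where adjusted p was under 0.05 by limma). All points of par-3, cdc-42 and mbk-2 are filled and below -0.9, whereas par-1 has filled and open points and par-2, par-5 and par-6 have points on both sides of 0.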

How the data were processed

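The authors deposited log2 ratios for 20000 probes on 4 arrays of 2 colours, already scaled per array; the labels and the table do not say how they were scaled, filtered or read from the image. Base 2 was read from the values: raised as powers of 2, 100% of values under a ratio of 3 fell on whole thousandths (tolerance 0.01 of a thousandth), against at most 2.59% for other bases. Probe names came from the platform annotation and were updated to assembly WBcel235, which served for names only (15569 probes by gene identifier, 7 by accession, 79 unmatched and kept). Probes of a gene were averaged. The 19214 features with values on at least 3 arrays were fitted with limma 3.58.1 in R 4.3.3 (lmFit on an intercept, eBayes, two-sided, Benjamini-Hochberg over all features, called under 0.05), a test against 0 in which variation of the reference has no part. Without a recorded dye swap, dye bias of single genes remains. The number of arrays limits precision. Steps were tested on simulated data.

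The members and lists were chosen with earlier results of these data known. Named are all members, their relatives, and up to 3 called genes per direction, list and 4 arrays with a single sign; others are said to be chosen later, and some results of this rule are not reported here. Lists were described by counts and medians without a test. Alternatives were other centrings and scalings, array weights, robust eBayes, other limits on missing values, single probes, a threshold of 0.01, leaving out each preparation, and the period of the titles. Figures were drawn with matplotlib 3.10.9.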

Additional observations from a re-analysis of the deposited data

Results flagged for a closer look

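In 3 of 55 sets of 4 arrays 1 array lay apart from the other 3 by Dixon's criterion at the 95% level, and chance alone flags about 1 set in 20. The second par-6 probe was at 0.21 on preparation 4, against -0.16 to -0.11 on the others. The eggshell gene chs-1 was at -1.31 on preparation 3, against -2.13 to -1.99 on the others. The CDC-42 regulator gene srgp-1 was at -2.27 on preparation 2, against -1.20 to -1.0 on the others.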

How the results depend on the processing

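The calls of par-3, cdc-42 and mbk-2 held under all 17 alternatives run, with log2 ratios of -1.79 to -1.13, -1.49 to -0.93 and -1.59 to -0.92. The count of members called lower was 3 or 4, the fourth being par-1; leaving out each preparation in turn gave 3 to 4 lower, 0 higher and a median of -0.77 to -0.35. The count of members called higher was 1 with array weights (par-2) and 1 with every probe on its own (the first par-6 probe). Centring on chemoreceptor or ribosomal protein genes moved the median of all features by -0.34 or -0.40 and put the members' median at -0.95 or -1.01. List medians moved with it, to -0.83 or -0.89 for cortical partners, -1.62 or -1.68 for determinants, -1.53 or -1.59 for MBK-2 genes, -0.67 or -0.73 for the PAR-4 pathway and for relatives, -0.91 or -0.97 for epithelial genes and -1.08 or -1.13 for CDC-42 genes. The same centrings reversed the sign of uncalled genes: par-2 was -0.11 or -0.17, par-5 -0.026 or -0.084, par-6 -0.048 or -0.11, ftt-2 -0.14 or -0.20 and rac-2 -0.25 or -0.31. The second par-6 probe alone was -0.043; hpk-1 was 0.0015 with array weights and, leaving out each preparation in turn, -0.57 to 0.039 (the highest without preparation 2); rac-2 was -0.22 with array weights and, leaving out each preparation in turn, -0.077 to 0.24 (the lowest without preparation 4). The cause was not tested. Over all features 4242 were called higher and 4535 lower (48.3% of calls higher), against 2015 and 5716 (26.1%) or 1624 and 4536 (26.4%) with those centrings, 2782 and 3010 without preparation 3, and 2393 and 2683 at a threshold of 0.01. The higher calls of mlc-4, cul-2 and vab-10 were lost with both centrings. No paired analysis was possible because the arrays form a single group. Signal over background could not be judged, since spot intensities were not used here.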

Other observations

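Picked after its values were seen, the junction gene ajm-1 had log2 ratios of -1.41, -2.40, -1.08 and 0.31 on preparations 1 to 4, beside -0.97, -2.30, -0.93 and 0.30 for par-1. Both genes were above 0 on preparation 4 alone. The mean of ajm-1 was -1.14 ± 1.12 (SD, n = 4; adjusted p = 0.0454 by limma) and was called, while that of par-1 was not. Another junction gene, dlg-1, had 0.35, 0.71, 0.96 and 5.08, and its mean of 1.77 ± 2.22 (SD, n = 4) was not called (adjusted p = 0.0803 by limma). That mean rests mostly on preparation 4, and dlg-1 was not among the sets checked by Dixon's criterion. The chaperone gene cdc-37, which stabilises PKC-3, had 1.06, -0.38, 1.42 and 1.77 and was not called at 0.97 ± 0.94 (SD, n = 4; adjusted p = 0.0504 by limma), with preparation 2 the only array below 0.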
